A study of Mus musculus with 5 samples.

Results

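The Rab, Arf and Arl genes encode small GTPases of the Ras superfamily that direct membrane traffic between compartments of the cell. They were taken as every probe set whose platform gene symbol was Rab, Arf or Arl followed by a number and at most 1 letter, which gave 56 of 12422 probe sets and 42 of 8251 named genes. Of these genes, 33 were Rab genes with 44 probe sets, 6 were Arf genes with 9 probe sets and 3 were Arl genes with 3 probe sets. The rule reads symbols and not signals, although the set was proposed with earlier results of these data known. Total RNA of 5 mouse bone marrow samples was profiled, with 1 array per sample. The labels describe all 5 as 1 kind of cell, a progenitor of dendritic cells that carries FLT3, a cytokine receptor, and CD11b, a myeloid integrin chain. Strain, age, treatment, sorting method and any pooling of animals are not given in the sources used here, and nothing says whether the samples came from separate animals. The spread below is therefore that between these 5 samples, which may be technical in part, and no contrast between conditions exists.

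A Rab or Arf protein is inactive when it holds GDP and active when it holds GTP. Exchange factors load GTP, GTPase-activating proteins end the active state, and effectors bind the active form on a given membrane. Rab proteins are anchored by prenyl groups and are taken off membranes by GDP dissociation inhibitors, while Arf proteins carry a myristoyl group and recruit vesicle coats. In myeloid cells these GTPases serve secretion through the Golgi, uptake and recycling through endosomes and phagosomes, and the release of granules.

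Signals are array intensities after each array was scaled to a common median of 103.4, and errors are SD over n = 5 samples. A gene was called above the limit if, on each of the 5 arrays, its probe set was brighter than that array's median. Such a call is relative to the other probe sets, and presence or absence of a transcript cannot be read from it. Probe sets differ in how well they bind, so signals of different genes are not ranked against each other. In RNA of a mixed population, fewer cells of a type and less RNA per cell cannot be told apart. The gate genes were both above the limit, Flt3 at 745 ± 463 and Itgam, which encodes CD11b, at 477 ± 215. Among markers of other cells, all 9 neutrophil genes and all 4 monocyte and macrophage genes were above it, as were 3 of 4 mast cell, basophil and eosinophil genes and 1 of 5 genes of mature dendritic cells. Of the mature dendritic cell genes Cd74 was above it, Itgax and Cd86 were above the median on 3 arrays each, and Ccr7 and H2-Ab1 on none. Of the progenitor genes Kit was above the limit, and Cd34 was above the median on 3 arrays. None of the 3 B cell, 2 T and NK cell or 2 erythroid and megakaryocyte genes measured was above it, but the 3 B cell genes were above the median on 2 or 3 arrays, with Cd79a at 265 in sample 1, and Klf1 on 3. The neutrophil genes summed to between 67179 in sample 1 and 198725 in sample 4, a range that S100a8 and Ngp set in large part. These genes did not move together: in sample 1 S100a8 and Ngp were at their lowest, at 9540.2 and 7093, while Elane, Prtn3 and Ctsg were at their highest, at 10647, 6429 and 8592. Their part in the results below was not tested.

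Most of these GTPase genes had signal above the limit. It was passed by 27 of 42 genes, which is 64.3%, beside 44.5% of all 8251 named genes. Of the remaining 15 genes, 8 were above the median on 1 to 4 arrays and 7 on none. On single arrays between 27 and 33 of the 42 genes exceeded the median. The share of named genes on single arrays was not computed, but 57.3% of them exceeded the median on 3 or more arrays. Among the Rab genes 21 of 33 were above the limit, among the Arf genes 5 of 6 and among the Arl genes 1 of 3. Leaving out any single sample gave 27 or 28 of 42. With the 40th percentile of each array as the limit the count was 29 of 42, beside 51.1% of all named genes, and with the 75th percentile it was 17 of 42, beside 21.7%. With 3 arrays sufficing it was 30 of 42, beside 57.3%. By probe set, 31 of 56 were above the limit, beside 38.1% of all 10833 probe sets with 1 symbol. These shares are descriptions of the arrays, and no test sets the genes against others.

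**Figure D1:**
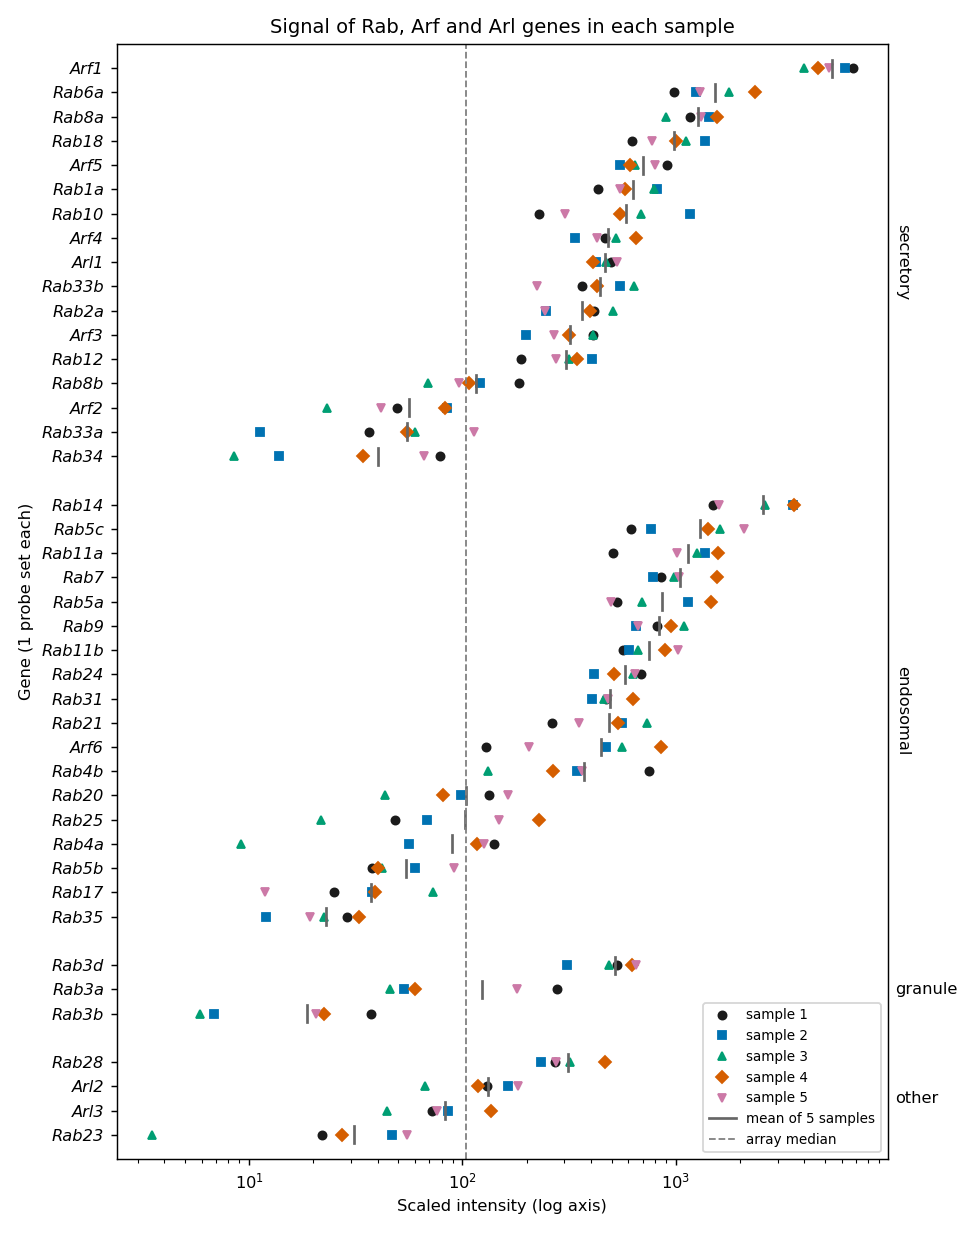
Scaled intensity (log axis) of the 42 Rab, Arf and Arl genes, 1 probe set per gene, in groups by role. Symbols mark the 5 samples, the short vertical line is their mean and the dashed line is the common array median of 103.4. The endosomal genes from Rab14 to Rab4b lie right of the line in every sample, while Rab17, Rab5b, Rab35, Rab34, Arf2, Rab3b and Rab23 lie left of it in every sample.

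Genes of the secretory pathway, from the endoplasmic reticulum through the Golgi to the surface, were above the limit in 13 of 17 cases. That is 76.5%, beside 44.5% of all named genes. Arf1, which recruits the COPI coat and clathrin adaptors to Golgi membranes, had signals of 6749, 6220.1, 4014, 4636 and 5256 in samples 1 to 5. Samples 1 and 2 were high and sample 3 was low, but the highest was only 1.68 times the lowest. The mean was 5375 ± 1119.8. Of the other Arf genes with roles at the Golgi, Arf5 had 701 ± 148, Arf4 482 ± 117 and Arf3 321 ± 91.2. Arl1, which brings golgin tethers to the trans-Golgi network, had the smallest spread of the 29 members whose mean lay above the limit. Its signals were 498, 423, 471, 409 and 529.7 in samples 1 to 5, with an SD of 0.16 on the log2 scale. Arf2 was the member of the Arf genes below the median on all 5 arrays, at 56.4 ± 26.9.

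Rab6a, which serves traffic within and out of the Golgi, had 977, 1241, 1786, 2365 and 1297 in samples 1 to 5. Sample 4 was high and sample 1 low, and the mean was 1533 ± 549. Rab8a, which acts in transport from the trans-Golgi network to the plasma membrane, had 1162, 1431, 901, 1555 and 1307 in samples 1 to 5. Its samples lay close together, with sample 3 lowest, and the mean was 1271 ± 253. Rab18, a Rab of the endoplasmic reticulum and lipid droplets, had 626, 1372, 1121, 1008 and 770.4 in samples 1 to 5. Sample 2 was highest there, and sample 1 was lowest, as it was for Rab6a.

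Rab1a, needed for transport from the endoplasmic reticulum to the Golgi, had 633 ± 165, and Rab2a, which acts between the same compartments, 362 ± 115. Rab33b of the Golgi and of autophagosome formation had 440.0 ± 161. Rab12, grouped here although it also carries receptors from recycling endosomes to lysosomes, had 306 ± 80.8. The members of this group not above the limit were Rab8b, above the median on 3 arrays at 116 ± 42.97, Rab33a, above it on 1 at 55.2 ± 37.7, and Arf2 and Rab34, above it on none. Rab34, a Rab of the Golgi and of macropinosomes, had a mean of 40.1 and a highest value of 78.2. By the brightest probe set of each gene, the close relatives Rab8a and Rab8b, and Rab33a and Rab33b, thus fell on different sides of the limit. The second Rab33b probe set, 103062_at, was above the median on 4 arrays and so was not above the limit.

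Rab10 carries vesicles from the Golgi and recycling endosomes to the surface. With the brightest probe set of each gene, it had the largest spread of the secretory members. Its signals were 228, 1162, 687, 547 and 304 in samples 1 to 5. Sample 2 was 5.10 times sample 1, and sample 5 was the next lowest. Its second probe set, 160149_at, had 301, 364, 518, 349 and 229 in samples 1 to 5, with sample 3 highest and sample 5 lowest, so the highest sample differed between the probe sets.

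Endosomal genes were above the limit in 12 of 18 cases (66.7%), beside 44.5% of all named genes. Those above it were, of early endosomes, Rab5a, Rab5c and Rab21, of recycling Rab4b, Rab11a, Rab11b and Arf6, of traffic between the Golgi and endosomes Rab14 and Rab31, of late endosomes Rab7 and Rab9, and of autophagy Rab24. Rab14, which is also found on phagosomes, had 1494, 3535, 2613, 3573 and 1603 in samples 1 to 5. Samples 2 and 4 were high, samples 1 and 5 low and sample 3 between them. The mean was 2564 ± 1004.

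Rab5a, which drives fusion of early endosomes, had 528, 1141, 692, 1456 and 499 in samples 1 to 5. Samples 2 and 4 were again high and samples 1 and 5 low. Rab5c, its close relative, had 617, 768, 1612, 1419.7 and 2093 in samples 1 to 5, with another order: sample 5 was highest, 3.39 times sample 1. Rab5b, the remaining paralogue, was below the median on all 5 arrays at 54.2 ± 22.5. So 2 of the 3 Rab5 genes were above the limit. Rab21, an early endosome Rab that binds integrins, had 489 ± 185.

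Among the recycling genes, Rab11a had 509, 1366, 1262, 1574 and 1018 in samples 1 to 5. Sample 1 was less than every other sample by a wide step. Rab11b had 565, 606, 662, 887 and 1022 in samples 1 to 5, with samples 4 and 5 high. Rab4b, which acts in fast return of receptors to the surface, had 750.4, 343, 132, 266 and 365 in samples 1 to 5. Here sample 1 was highest and sample 3 lowest, 5.69-fold apart. Rab4a, its paralogue, was above the median on 3 arrays, with 140.0, 56.2, 9.14, 117 and 126 in samples 1 to 5. Rab35, another Rab of fast recycling, was above it on none at 23.03 ± 8.09.

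Arf6 acts at the plasma membrane in endocytic recycling and actin remodelling. With the brightest probe set of each gene, it had the largest spread of the 29 members whose mean lay above the limit. Its signals were 128, 470.1, 563, 854 and 205 in samples 1 to 5. Sample 4 was 6.66 times sample 1, and sample 5 was the next lowest. The second Arf6 probe set, 100462_at, had 175, 129, 117, 102 and 19.1 in samples 1 to 5, with sample 1 highest and sample 5 lowest.

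Of late endosomes, Rab7, required for fusion with lysosomes, had 854, 781, 978, 1566 and 1031 in samples 1 to 5, with sample 4 high and the others close together. Its mean was 1042 ± 309. Rab9, which returns receptors from late endosomes to the Golgi, had 833 ± 189, Rab24 578 ± 112 and Rab31 489.6 ± 82.4. The other endosomal members not above the limit were Rab20, a Rab of maturing phagosomes, above the median on 2 arrays at 104 ± 46.4, and the epithelial Rabs Rab25, above it on 2 at 103 ± 84.1, and Rab17, above it on none at 37.3 ± 22.8.

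Members of the granule group, the Rab3 genes of regulated exocytosis, were above the limit in 1 of 3 cases, beside 44.5% of named genes. Rab3d, known from granules of mast cells and exocrine glands, had 528, 310.0, 486, 623 and 655 in samples 1 to 5. All 5 samples were above the median and sample 2 was lowest, and the mean was 520.3 ± 136. Rab3a, the Rab of synaptic vesicles, had 278, 53.1, 45.7, 59.9 and 180.0 in samples 1 to 5. Samples 1 and 5 were above the median and the other samples below it. Its second probe set, 161790_at, had 36.1, 30.7, 17.2, 25.5 and 45.3 in samples 1 to 5, below the median throughout. Rab3b had 37.5, 6.83, 5.92, 22.4 and 20.5 in samples 1 to 5, below the median on every array. Rab27a, Rab27b, Rab32, Rab37 and Rab38, which act on granules or related organelles, are not analysed here. With 3 genes the share of this group carries little weight.

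Of the 4 members with other roles, 1 was above the limit, beside 44.5% of all named genes. Rab28 had 272, 233, 321, 465 and 273 in samples 1 to 5, with sample 4 high and the others close together. Arl2, which acts in tubulin folding and microtubule assembly, was above the median on 4 arrays at 132 ± 44.5, with sample 3 below it. Arl3, which releases lipidated cargo in cilia, was above it on 1 array at 82.6 ± 33.3. Rab23, a Rab of cilia and Hedgehog signalling, was above it on none at 30.9 ± 20.5.

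The promoters of the Rab5 and Rab3 paralogues are shown because each family has members on both sides of the limit. Each sequence is the 250 bases before the annotated start, read 5′ to 3′ on the gene's strand, from RefSeq on GRCm38.p6. Capitals mark matches, on either strand, to any of 6 motifs. These were TATAAA, found where TBP binds, CCAAT, known from NF-Y binding, GGGCGG, called a GC box below, CACGTG, which is an E-box, CCGGAAG, the core bound by ETS factors, and TGACGTCA, the cAMP response element. Rab5a and Rab5c had all 5 arrays above the median and Rab5b none; Rab3d had all 5, Rab3a 2 and Rab3b none.
Rab5a (chr17:53478984-53479233, plus strand): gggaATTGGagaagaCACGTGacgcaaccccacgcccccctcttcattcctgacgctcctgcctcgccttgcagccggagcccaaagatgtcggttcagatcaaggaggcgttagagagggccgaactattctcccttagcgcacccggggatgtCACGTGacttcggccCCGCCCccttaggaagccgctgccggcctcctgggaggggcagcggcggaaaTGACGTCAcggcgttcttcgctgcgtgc
Rab5c (chr11:100738216-100738465, minus strand): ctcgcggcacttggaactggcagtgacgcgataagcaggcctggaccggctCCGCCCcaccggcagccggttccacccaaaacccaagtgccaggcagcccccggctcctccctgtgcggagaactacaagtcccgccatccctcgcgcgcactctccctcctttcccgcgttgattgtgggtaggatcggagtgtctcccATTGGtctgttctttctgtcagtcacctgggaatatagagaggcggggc
Rab5b (chr10:128696269-128696518, minus strand): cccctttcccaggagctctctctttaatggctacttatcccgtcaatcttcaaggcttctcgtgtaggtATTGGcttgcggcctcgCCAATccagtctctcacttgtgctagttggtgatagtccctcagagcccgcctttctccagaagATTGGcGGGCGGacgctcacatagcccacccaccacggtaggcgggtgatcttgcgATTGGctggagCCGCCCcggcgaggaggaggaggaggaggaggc
Rab3d (chr9:21918184-21918433, minus strand): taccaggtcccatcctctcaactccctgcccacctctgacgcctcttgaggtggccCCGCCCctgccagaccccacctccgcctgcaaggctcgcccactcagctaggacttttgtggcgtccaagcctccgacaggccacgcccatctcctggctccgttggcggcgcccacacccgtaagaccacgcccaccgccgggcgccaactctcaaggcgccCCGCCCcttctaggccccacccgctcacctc
Rab3a (chr8:70754453-70754702, plus strand): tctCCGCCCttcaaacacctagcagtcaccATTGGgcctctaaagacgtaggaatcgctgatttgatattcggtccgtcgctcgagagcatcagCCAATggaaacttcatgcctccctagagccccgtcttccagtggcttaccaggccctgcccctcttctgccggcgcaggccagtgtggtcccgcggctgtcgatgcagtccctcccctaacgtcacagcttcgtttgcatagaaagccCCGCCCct
Rab3b (chr4:108878820-108879069, plus strand): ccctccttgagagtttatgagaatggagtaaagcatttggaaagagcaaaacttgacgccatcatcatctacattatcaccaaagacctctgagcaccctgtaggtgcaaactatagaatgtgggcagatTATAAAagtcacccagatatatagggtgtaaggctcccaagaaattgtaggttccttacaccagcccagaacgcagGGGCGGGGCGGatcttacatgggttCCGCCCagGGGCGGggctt

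All 6 windows held a GC box. In that of Rab5a the CACGTG motif began at -235 and -95, counted back from the annotated start, and the TGACGTCA motif at -28. The Rab5b window held 4 matches of CCAAT or its reverse, at -181, -164, -100 and -44. The Rab3b window held 1 TATAAA at -120 and 4 GC boxes, 2 of which overlap by 1 base. CpG dinucleotides numbered 23 in Rab5a, 18 in Rab5c, 14 in Rab5b, 18 in Rab3d, 16 in Rab3a and 6 in Rab3b.

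A promoter was found for 38 of the 42 members; those without a match were Arf6, Rab18, Rab2a and Rab4a. Where a gene had several windows the first listed was used. The median number of CpG dinucleotides in 250 bases was 20 over the members, from 3 in Rab17 to 39 in Rab35, beside 14 over 6576 named genes of the array and 6 over all 27025 promoters of the table. It was 23 over the 24 members above the limit and 13 over the other 14, and the 2 ranges overlapped widely. Rab9 with 7, Rab11b with 9 and Rab11a and Rab7 with 10 each were above the limit, whereas Rab35 with 39 and Arl3 with 23 were not. A GC box stood in 28 of 38 member promoters (73.7%), beside 54.8% of those of named genes and 32.9% of all. CACGTG stood in 7 of 38 (18.4%), beside 8.42% and 6.05%, and CCAAT in 18 of 38 (47.4%), beside 35.9% and 34.5%. TATAAA stood in 2 of 38 (5.26%), beside 9.34% and 12.97%, CCGGAAG in 4 of 38 (10.5%), beside 12.3% and 7.05%, and TGACGTCA in 2 of 38 (5.26%), beside 2.43% and 1.62%. A match describes letters in a window and is not a measured site.

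For 12 of the 42 members the array held more than 1 probe set, and for 8 of the 12 these disagreed about the limit. The brightest probe set by mean log2 signal stood for each gene above, for members as for all other genes. Of Rab1a, Rab2a, Rab11a, Rab33b, Rab31, Rab14, Arf3 and Arf6 at least 1 further probe set was not above the limit. Both probe sets of Rab6a, Rab10 and Rab7 were above it, and both of Rab3a were not. A suffix of _s, _f or _r marks probe sets that can bind related transcripts or that were designed under relaxed rules. The Rab33b and Arf4 values rest on such probe sets, so signal of related transcripts is not separated there.

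For Rab1a, probe set 92882_at had 433, 818, 789.7, 578 and 548 in samples 1 to 5, and 92883_at had 17.4, 54.5, 64.5, 9.18 and 23.7 in samples 1 to 5. For Rab2a, 94031_at had 414, 246, 508, 398 and 245 in samples 1 to 5, and 162141_r_at had 2.51, 26.2, 2.56, 20.2 and 1.40 in samples 1 to 5. In both genes every sample was above the median by 1 probe set and below it by the other. For Rab6a, 97222_at had 228, 316, 277, 256 and 199.8 in samples 1 to 5, with sample 2 highest where 98927_at had sample 4 highest. For Rab33b, 97058_f_at had 363, 545, 641, 426 and 225 in samples 1 to 5, and 103062_at had 108, 149.5, 133, 135 and 91.8 in samples 1 to 5. Sample 5 was lowest by both. For Rab11a, 96238_at had 68.5, 119.6, 96.7, 125 and 66.1 in samples 1 to 5, with samples 1 and 5 low. By the brighter 92854_at only sample 1 was far below the others. For Rab31, 96811_at had 473, 405, 462, 627 and 480.3 in samples 1 to 5, and 161380_f_at had 214, 56.6, 399, 257 and 177 in samples 1 to 5. Sample 2 was lowest by both. For Arf3, 95889_at had 411, 199.7, 409, 315 and 269 in samples 1 to 5, 93700_at had 403, 199.7, 80.1, 219 and 31.2 in samples 1 to 5, and 96587_at had 67.2, 67.3, 5.11, 12.9 and 242 in samples 1 to 5. The 3 probe sets put different samples highest and lowest, except that 95889_at and 93700_at both had sample 1 highest.

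Rab7, too, had probe sets with different orders of the samples. Probe set 99587_at had 854, 781, 978, 1566 and 1031 in samples 1 to 5, while 95785_s_at had 1287, 473, 104, 177 and 561 in samples 1 to 5. Sample 1 was highest in the latter and sample 3 lowest, 12.4-fold apart, with no such order in the former. For beta-actin, whose control probe sets lie at both ends of the transcript, signal at the 3′ end divided by that at the 5′ end was 1.08, 3.003, 4.15, 5.20 and 2.55 in samples 1 to 5, and for Gapdh it was 0.896, 1.06, 4.52, 3.42 and 2.01. For the transferrin receptor it was 3.14, 3.77, 16.7, 8.63 and 5.16 in samples 1 to 5. Sample 1 thus had the lowest ratio of each control, and samples 3 and 4 the highest. Of Rab14, probe sets 97301_at and 104442_at were both low in samples 1 and 5, the latter with 112, 286, 328, 433 and 113 in samples 1 to 5, while 95686_at had 102, 67.99, 112, 118 and 198 in samples 1 to 5.

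**Figure D2:**
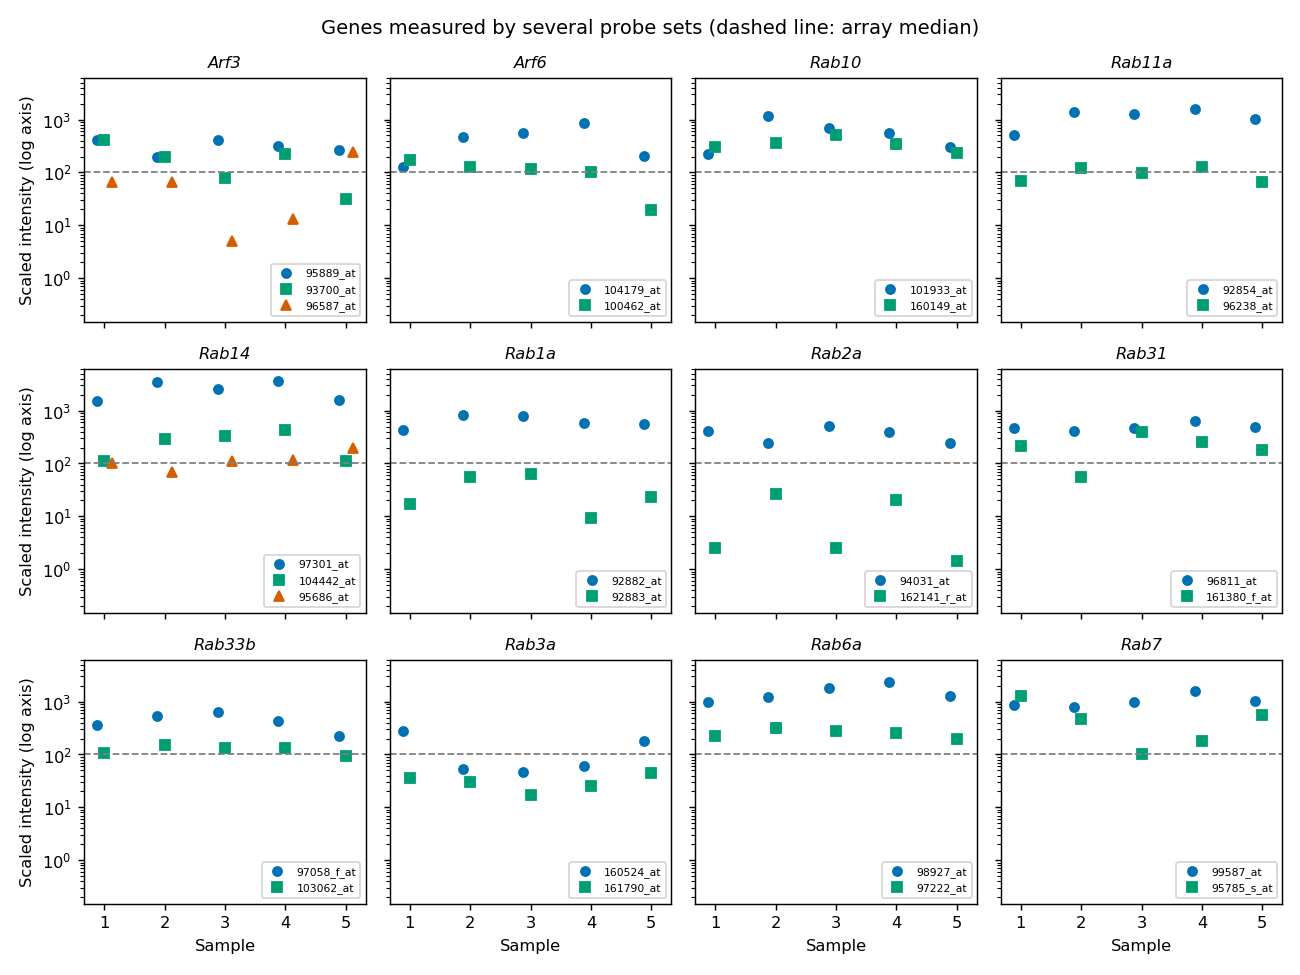
Scaled intensity (log axis) by sample for the 12 members with several probe sets, 1 panel per gene and 1 symbol per probe set; the dashed line is the array median. Rab7 shows 2 probe sets with different orders of the samples, and Rab2a and Rab1a show 1 probe set above the line and 1 below it in every sample.

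How far the samples differed was similar to that over other genes. The SD between samples on the log2 scale had a median of 0.44 over the 29 members with a mean above the limit, beside 0.46 over 4557 named genes, and ran from 0.16 in Arl1 to 1.12 in Arf6. The highest sample was a median of 2.11 times the lowest, beside 2.21 times over those named genes. For the 14 secretory members the median SD was 0.43 and for the 12 endosomal members 0.60. In limma's variance test, which sets each probe set's variance against a prior fitted to all 5814 probe sets, 0 of 29 members passed at an adjusted p of 0.05, beside 0.0% of all. At an unadjusted p under 0.05 there were 2 of 29, by 1 probe set per gene, beside 4.99% of all probe sets tested. These were Arf6 and Rab10, both with an adjusted p of 0.925 in limma. With a non-robust prior the numbers were likewise 0 and 2. Probe sets that do not stand for their gene were left out of the 29. Among them Rab7 95785_s_at and Arf3 93700_at had SDs of 1.43 and 1.44, above that of Arf6. Their unadjusted p in limma were 0.0042 and 0.029, and their adjusted p was 0.925 each. With 5 arrays, 0 calls do not show that the members varied no more than other genes. After Arf6 and Rab10, the largest SDs of the 29 were Rab4b at 0.90, Rab5c at 0.74, Rab5a at 0.68 and Rab11a at 0.64. These were all endosomal.

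**Figure D3:**
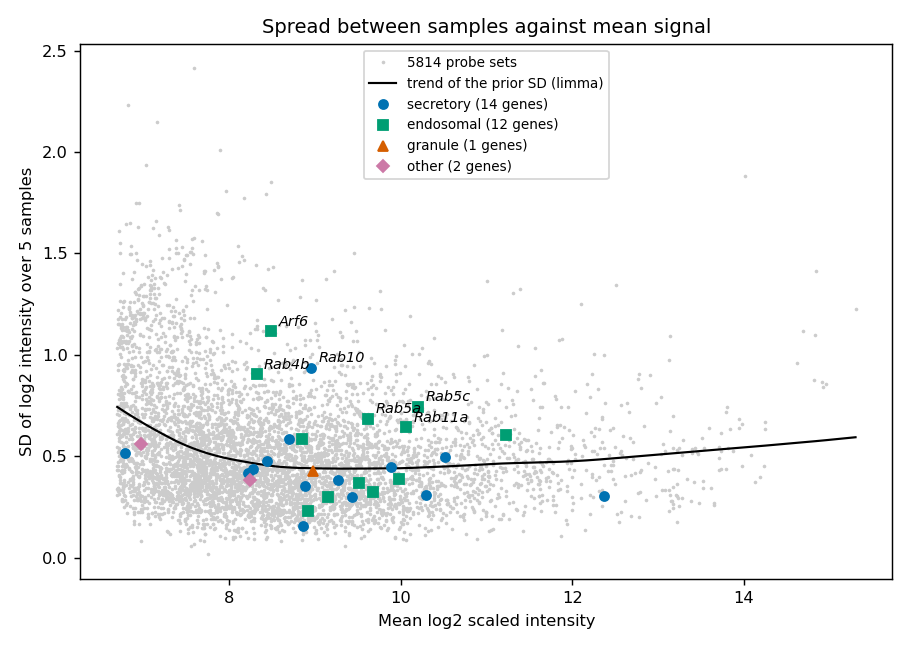
SD of log2 intensity over 5 samples against mean log2 scaled intensity, for 5814 probe sets (grey) and for the 29 members by role. The line is the prior SD that limma fitted, and the 6 members with the largest SD are named; Arf6 lies highest among the members, well inside the grey cloud.

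Each gene's deviation from its own 5-sample mean was then set out by sample. Over the 29 members the median deviation in samples 1 to 5 was -0.16, 0.10, 0.12, 0.22 and -0.13 log2 units, beside -0.05, 0.06, -0.00 and 0.20 in samples 1 to 4 and -0.09 in sample 5 over the 4557 named genes. In sample 1, 19 of 29 members lay below their mean (65.5%), beside 53.3% of named genes, and in sample 4 it was 8 of 29 (27.6%), beside 30.9%. Sample 5 had the same count as sample 1, 19 of 29 (65.5%), beside 57.9% of named genes. Among the secretory members 11 of 14 (78.6%) lay below their mean in sample 5. The signs in samples 2 and 3 were not stable: without sample 3 the median in sample 2 was -0.19, and with no filter on low signals the medians in samples 2 and 3 were -0.044 and -0.035. The lowest sample was sample 1 for 11 members, sample 2 for 9, sample 3 for 5, sample 5 for 3 and sample 4 for 1, which was Arl1. Over the named genes the lowest sample was sample 1 for 27.8%, sample 2 for 18.4%, sample 3 for 21.3%, sample 5 for 24.03% and sample 4 for 8.51%. The members' own shares were 37.9%, 31.03%, 17.2%, 10.3% and 3.45% in the same order.

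Of the 19 members below their mean in sample 1, 10 were endosomal, 8 secretory and 1, Rab28, of another role. The endosomal members are described further, a choice made after the values were seen. Of 12 endosomal members 10 lay below their mean in sample 1 (83.3%), beside 53.3% of named genes, and Rab4b and Rab24 lay above theirs. The endosomal median was -0.47 log2 units, beside -0.05 over named genes. The deviations were -1.48 for Arf6, -1.07 for Rab11a, -0.93 for Rab5c and -0.80 for Rab21, while Rab31 lay at -0.03. Of the 14 secretory members 8 lay below theirs, with a median of -0.06, among them Rab10 at -1.13 and Rab12 at -0.65. The endosomal median in sample 1 was -0.42 after quantile normalization, with 8 of 12 below, beside a median of 0.007 over named genes. It was -0.30 with every probe set whose mean lay above the limit, with 12 of 16 below. The second probe sets of Arf6, at 0.87 in sample 1, and of Rab11a, at -0.42, did not pass that filter. Left-out samples gave -0.48 to -0.32, beside -0.08 to 0.002 over named genes. Without sample 3, 9 of 14 endosomal members lay below their mean in sample 1, and without sample 4, 8 of 12. The shares of named genes below their mean were not computed for these alternatives. Sample 1 was also the array with the lowest 3′ over 5′ control ratios, and it was deposited on another scale, with a trimmed mean of 1001 where the others had 200.1. Of the 9 neutrophil markers 4 lay below their mean in that sample and 5 above. The part of these in the pattern was not tested. The order of the 5 samples in Arf6 was that of the beta-actin ratio. The Gapdh and transferrin receptor ratios had another order, with sample 3 highest, and so did the second Arf6 probe set, with sample 1 highest. The beta-actin order held for 1 of 29 members, beside 3.01% of named genes, and its reverse for 0 of 29, beside 1.08%. Genes in the order of the other controls were not counted.

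**Figure D4:**
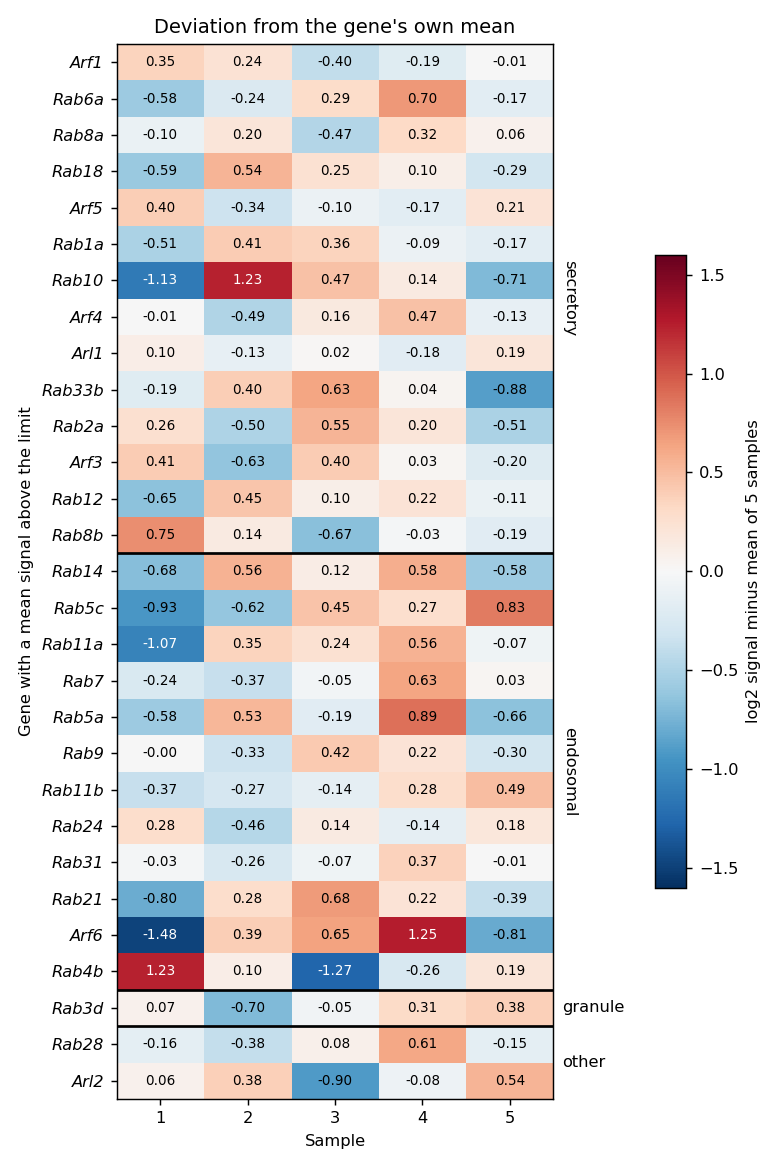
Deviation of log2 signal from each gene's 5-sample mean for the 29 members with a mean above the limit, by role (rows) and sample (columns); red is above and blue below the mean. In the sample 1 column 10 of 12 endosomal members are below 0, beside 53.3% of named genes. They run from Arf6 at -1.48 up, and Rab4b stands out at 1.23.

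Genes that regulate or serve these GTPases were above the limit in 49 of 72 measured cases, from lists of 130 symbols, beside 44.5% of named genes. Of the genes that prenylate, escort or extract Rab proteins 3 of 4 were above it. Gdi2, a GDP dissociation inhibitor, had 2539, 2697, 3677, 3902 and 1336 in samples 1 to 5, with samples 3 and 4 high and sample 5 low. Rabggtb, the beta subunit of Rab geranylgeranyl transferase, had 466 ± 129, whereas the alpha subunit gene Rabggta was above the median on 1 array at 65.1 ± 50.5.

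Of the Rab exchange factors 6 of 10 were above the limit, beside 44.5% of all named genes. Rin2, which activates Rab5, had 367 ± 138. Rab3il1 and Rab3ip, exchange factors named for their binding of Rab3 or its partners, were above the median on 2 arrays each, at 89.7 ± 56.5 and 78.5 ± 41.5. Of the Rab GTPase-activating proteins 5 of 7 were above it, with Tbc1d1 at 249.7 ± 75.99 and Tbc1d15, which acts on Rab7, at 1165 ± 506, while Tbc1d10a was above the median on 3 arrays at 132 ± 109. Of the Rab effectors 4 of 9 were above it, a share near the 44.5% of all named genes. Eea1, the tether that binds Rab5 on early endosomes, had 235, 463, 481, 508 and 231 in samples 1 to 5. Samples 1 and 5 were low and the other samples close together. Rab5a was low in samples 1 and 5 too, whereas Rab5c was highest in sample 5. The pattern was not particular to Eea1: all 9 Rab effectors lay below their mean in sample 1 and 8 of 9 in sample 5. Of named genes with a mean above the limit, 53.3% lay below theirs in sample 1 and 57.9% in sample 5. The sets are unlike, because the 9 effectors include Rabepk, Sytl4 and Mlph, whose means were not above the limit. Rabep1, another Rab5 effector, was above the median on 4 arrays at 116 ± 26.6, and Rab11fip5, which binds Rab11, on 3 at 117 ± 29.6.

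Of the Arf exchange factors 4 of 6 were above the limit, beside 44.5% of all named genes. Gbf1, which loads Arf1 at the early Golgi, had 204 ± 58.01, and Arfgef1, which acts at the trans-Golgi, 1621 ± 507. Cyth1, an exchange factor at the plasma membrane, was above the median on 1 array at 52.2 ± 58.2. Of the Arf GTPase-activating proteins 7 of 10 were above it, with Arfgap2 at 856 ± 268 and Git1 at 290.5 ± 114, while Arfgap3 was above the median on 3 arrays at 116 ± 62.7. Coat subunits and other Arf and Arl effectors were above it in 20 of 26 cases. The COPI subunit genes Copa at 1936 ± 431, Copb1 at 597 ± 198 and Copb2 at 2002 ± 614 were all among them.

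**Figure D5:**
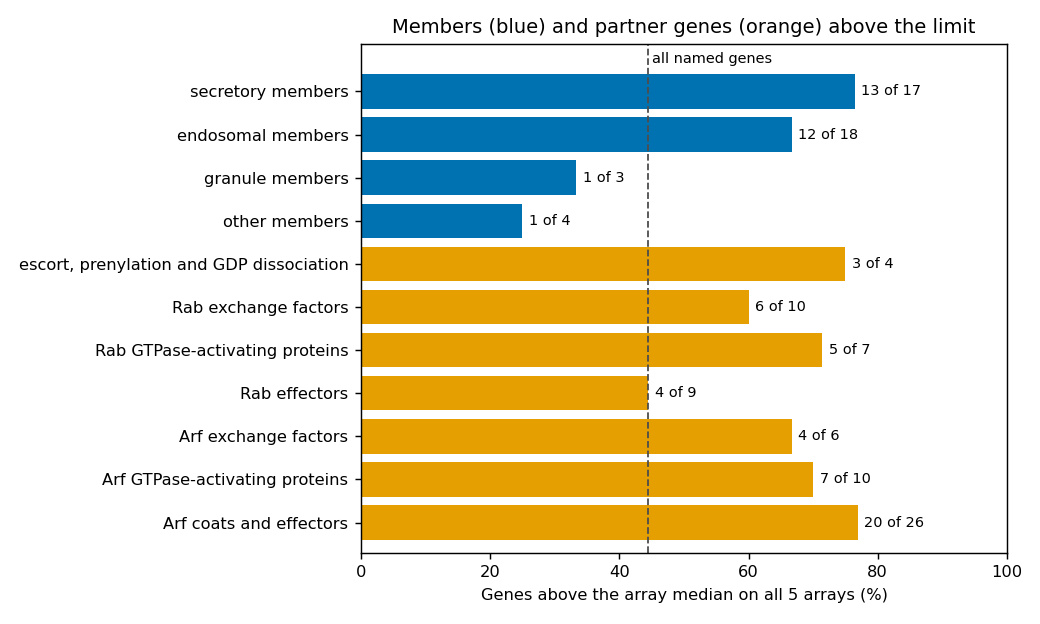
Share of genes above the array median on all 5 arrays (%), for the members by role (blue) and for lists of partner genes (orange), with the count beside each bar; the dashed line is the 44.5% of all named genes. Secretory and endosomal members reach 13 of 17 and 12 of 18, and Rab effectors, at 4 of 9, lie at the line.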

How the data were processed

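Arrays of 5 samples in 1 group were analysed. The deposited values are linear intensity values for each probe set; the software and scaling that made them are not given in the sources used here. Precision is limited by the number of arrays. The 66 control probe sets were left out of 12488, each array was multiplied by 1 factor to the common median, a floor was set at the 25th percentile of the scaled values (30.04), and log2 was taken. Fold differences and deviations are on this scale, which understates them for low signals. Probe sets were named by the platform annotation: 10833 had 1 symbol, 396 several and 1193 none listed here. All 42 member symbols matched a RefSeq table (GRCm38.p6) by gene ID, with 0 changes. Probe sets with a mean log2 above the median entered limma 3.58.1 in R 4.3.3, where each variance was tested against a robust, trended scaled F prior, with Benjamini-Hochberg adjustment over 5814. Dixon's test at 95% (critical value 0.71) was applied to the 29 members with a mean above the limit and gave 0 outlying samples.

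Members, role groups and partner lists were chosen with earlier results of these data known. By rule, sample values are given for the 4 highest members above the limit in each role, all granule members, the 6 with the largest SD and genes with several probe sets, and for the first 3 measured genes of each partner list a mean and SD; Arl1, Rab11b, Rab4a, Gdi2 and Eea1 were given sample values outside the rule, after their values were seen. Role groups follow textbook sites of action, and several members act at more than 1 site. Alternatives were other limits, fewer arrays, every probe set, quantile normalization, the values as deposited, no filter, a non-robust prior and leaving out each sample.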

Additional observations from a re-analysis of the deposited data

How the results depend on the processing

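Of 118 recomputed values 103 moved by less than 1.5 times (counts) or by less than 1 SD between samples (medians), and 15 moved further. With the 75th percentile as the limit, members above it numbered 17 in place of 27, partner genes 24 in place of 49, secretory members 8 in place of 13, and granule members and members with other roles 0 in place of 1 each. Of all named genes 21.7% passed the 75th percentile, in place of 44.5% at the median. Members with other roles numbered 2 with the 40th percentile and with 3 of 5 arrays sufficing, and from 1 to 2 over left-out samples. In the values as deposited, where sample 1 kept its larger scale, the median SD was 1.05 in place of 0.44. The median deviations there were 1.76, -0.40, -0.30, -0.42 and -0.48 in samples 1 to 5, beside 1.87 in sample 1 over all named genes. That of sample 2 ran from -0.19 to 0.095 over left-out samples, negative without samples 1, 3 or 4, and was -0.044 with no filter, where that of sample 3 was -0.035 in place of 0.12; the cause was not tested. The variance test called 0 members under every alternative run, among them no filter with a floor of 10, where it called 10 of 12422 probe sets. The median deviation of endosomal members in sample 1, for which alternatives were added after the data were seen, stayed negative in the 7 settings tried. The number of members below their mean was 8 of 12 after quantile normalization and without sample 4, in place of 10 of 12. Levels near the floor of 30.04 cannot be told apart. No paired analysis was possible because the labels give 1 group.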
